A study of Mus musculus with 30 samples.

Results

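The genes described here are 40 listed genes of the mesenchymal matrix and of mesenchymal cells, with the fibrillar collagens left out. They were taken by name, each through its brightest probe set, ranked by log2 values averaged across the 30 arrays, and 37 of the 40 were measured among the 18194 genes of the array. Fbn1, Loxl2 and Nid2os were not analysed here, because no probe set used here names any of them alone. The arrays measured total RNA of mouse embryonic stem cells that carry a floxed Jmj gene (Jmj fl/fl, labelled wild-type and called Fl/Fl here) or lack it (Jmj -/-, labelled mutant and called null). Jmj, now named Jarid2, encodes a partner protein of the Polycomb repressive complex that methylates histones. Cells were taken undifferentiated at day 0 and at days 2, 4, 6 and 8 after the withdrawal of LIF, the cytokine that holds mouse embryonic stem cells undifferentiated. Fl/Fl has 2 arrays at each day, and null has 3 at day 0, 5 at each of days 2, 4 and 6, and 2 at day 8. The labels call the arrays of a group biological replicates and do not say which came from separate cultures or clones, so the p-values measure only the spread between these samples. The comparisons ask which of these genes come on as the cells differentiate and how their levels in null compare.

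Mesenchymal cells secrete the matrix they sit in: matricellular proteins that signal to cells, small proteoglycans that coat collagen fibrils, microfibrils that carry elastin, and enzymes that trim, fold and cross-link collagen. In embryonic stem cell cultures such genes are low in the undifferentiated state and come on as mesoderm and its derivatives form, and many respond to TGF-beta, which cells store bound to the matrix.

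All values are intensities as deposited, with array medians of 10 to 11, so a value of a few units is the floor of the array. The summed intensity of 6 pluripotency genes was 23765 and 19444 in Fl/Fl and 21342, 18417 and 19764 in null at day 0, and 1315 and 599 in Fl/Fl and 1416 and 975 in null at day 8. Jarid2 read 3335 and 3340 in Fl/Fl and 4082, 2943 and 2872 in null at day 0. None of the labels says where its probe set lies relative to the deleted part, so this level does not check the labels, and null means labelled null throughout. The Y-linked gene Eif2s3y lay between 130 and 234 in every Fl/Fl array. In null it was above 500 in 11 arrays (replicates 2 and 3 of day 0 and replicates 3, 4 and 5 of days 2, 4 and 6), and at day 8 it read 365 in replicate 1 and 11 in replicate 2. Before day 8, Eif2s3y read 16 in null replicate 1 of day 2, and 12 and 13 in null replicate 2 of days 4 and 6. The remaining null arrays before day 8 read between 217 and 290. The null arrays therefore stand in sets that their labels do not name. No null array of day 8 belongs to the set above 500, and the 2 of day 8 differ from each other in level. No null array of day 0 read near the 11 of replicate 2 of day 8. The name of the list was checked against other fibroblast genes: in the day 8 Fl/Fl arrays Col1a1 reached 6250 and 6961 and Twist1 420 and 313, while Prrx1 (11 and 9) and Ddr2 (7 and 7), both used to mark fibroblasts, stayed at the floor, as did the member Fap at 5 in all 30 arrays.

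Upstream sequence was matched by symbol in RefSeq annotation of build GRCm38.p6, which held 31 start windows for 22 of the 40 genes. Each sequence below is the 250 bases before an annotated start, 5' to 3', on the strand of the gene. Postn, Tgfb2 and S100a4 are shown because they rose in Fl/Fl from low levels and carry a TATAAA match close to the start. Emp1 is shown because it holds 2 matches to TGANTCA, the letters searched for AP-1, where N is any base. The matches in Emp1 are TGAGTCA and TGATTCA, which differ at that base. They were chosen after their values were seen. Capitals mark the matches.
Postn (chr3:54360857-54361106, plus strand): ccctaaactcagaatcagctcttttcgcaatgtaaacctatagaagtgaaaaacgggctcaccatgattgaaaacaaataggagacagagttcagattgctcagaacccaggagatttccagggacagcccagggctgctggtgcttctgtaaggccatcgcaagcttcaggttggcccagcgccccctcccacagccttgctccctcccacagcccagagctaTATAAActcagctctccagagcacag
Tgfb2 (chr1:186705990-186706239, minus strand): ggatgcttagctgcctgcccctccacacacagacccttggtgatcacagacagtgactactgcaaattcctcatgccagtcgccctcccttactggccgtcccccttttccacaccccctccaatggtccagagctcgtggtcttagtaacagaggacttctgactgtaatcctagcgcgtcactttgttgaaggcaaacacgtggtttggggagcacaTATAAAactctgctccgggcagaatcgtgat
S100a4 (chr3:90603520-90603769, plus strand): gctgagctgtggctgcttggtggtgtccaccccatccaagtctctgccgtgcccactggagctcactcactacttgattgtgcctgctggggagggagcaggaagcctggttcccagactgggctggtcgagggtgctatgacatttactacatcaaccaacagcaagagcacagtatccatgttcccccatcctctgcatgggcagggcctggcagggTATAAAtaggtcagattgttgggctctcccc
Emp1 (chr6:135362681-135362930, plus strand): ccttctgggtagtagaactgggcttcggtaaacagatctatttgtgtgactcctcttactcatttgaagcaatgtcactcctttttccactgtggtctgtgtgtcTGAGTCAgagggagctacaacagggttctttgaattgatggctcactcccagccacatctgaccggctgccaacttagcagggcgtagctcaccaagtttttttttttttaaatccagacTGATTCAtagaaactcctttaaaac
The TATAAA match begins at -26 from the start in Postn and at -31 in Tgfb2 and in S100a4. Searched on both strands, TATAAA was present in 6 of the 31 windows (19.4%) and in 13.6% of all 32851 windows. TGANTCA was present in 6.5% of the members' windows against 7.8% of all, the TEAD letters GGAATG in 9.7% against 14.7%, and the CRE letters TGACGTCA in 0 of 31 against 1.8%. The searched motifs do not overlap one another in the sequences shown. A match describes letters only.

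In Fl/Fl the signal Tgfb2, the matricellular genes Thbs1 and Ccn4, the receptor Axl, and the collagen chaperone and protease Serpinh1 and Bmp1 were higher than at day 0 by day 4, Thbs1 and Serpinh1 from levels already well above the floor. By day 6, 17 members were higher, and Mgp, Tm4sf1 and S100a4 were called for the earliest time at day 8. At day 8 against day 0, 29 of the 37 measured members were higher and none lower in Fl/Fl (limma on log2 of intensity plus 4, Benjamini-Hochberg adjusted over 18194 genes, threshold 0.05). Of all genes 15% were higher and 18.6% lower in that comparison. The members' median log2 change was 3.14, against -0.05 over all genes. In null 17 members were higher and none lower at day 8, where 14.9% of all genes were higher and 18.5% lower, and the members' median was 0.64. Replicates 2 and 3 of null day 0 belong to the set above 500 in Eif2s3y, and no null array of day 8 does. Day and array set are therefore partly mixed in that null change. These are bulk samples, so fewer cells of a type and less RNA per cell cannot be told apart.

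**Figure D1:**
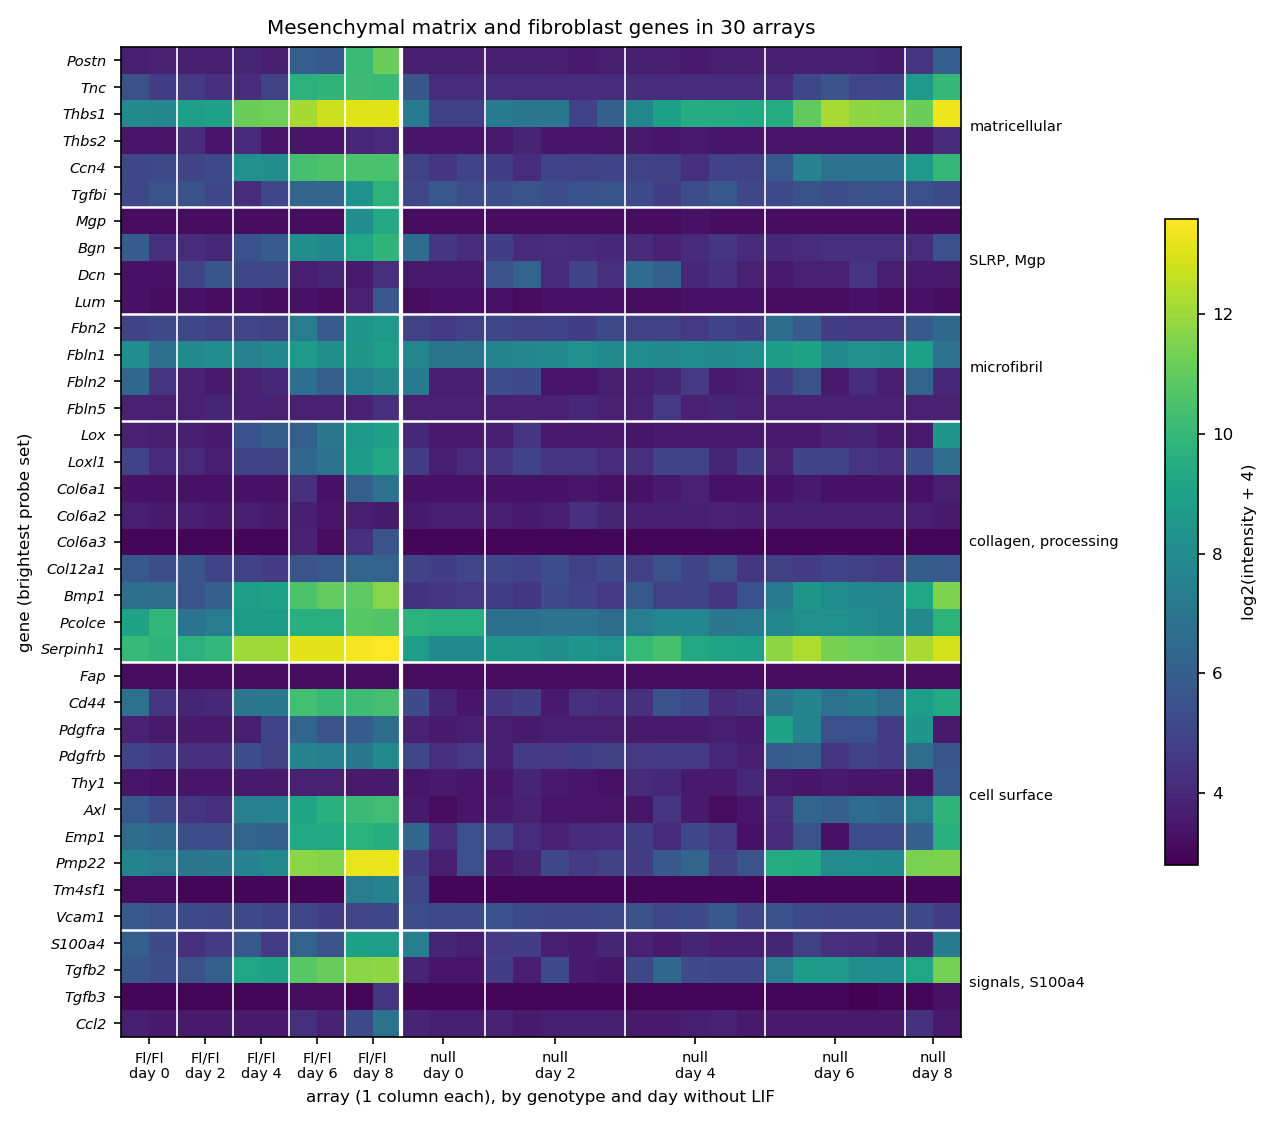
Heat map of log2(intensity + 4) for the 37 measured genes (rows, by role) in each of the 30 arrays (columns, by genotype and day without LIF). The bright cells gather at days 6 and 8 of Fl/Fl, while Postn, Mgp, Bgn and Tm4sf1 stay dark in both null arrays of day 8.

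By day, the Fl/Fl counts were 0 members higher and 1 lower at day 2, 6 higher and 1 lower at day 4, and 17 higher and 1 lower at day 6. Over all genes the matching shares were 1.24% higher and 1.91% lower at day 2, 8.01% and 10.5% at day 4, and 13.4% and 19.2% at day 6. The 6 that rose at day 4 were Thbs1, Bmp1, Serpinh1, Ccn4, Tgfb2 and Axl. At an unadjusted p under 0.05, in either direction, 3 members passed at day 2 in Fl/Fl and 4 in null. The share of all genes passing that unadjusted limit was not computed, so nothing is read from these numbers. The genes called lower in Fl/Fl were Pcolce at day 2, Col12a1 at day 4 and Vcam1 at day 6. In null, 0 were higher and 1 lower at day 2, 3 and 1 at day 4, and 10 and 1 at day 6, with shares over all genes of 2.4% and 3.02%, 6.36% and 8.34%, and 12.2% and 18%. The 3 that rose at day 4 in null were Thbs1, Serpinh1 and Tgfb2, and the gene that fell at days 2, 4 and 6 was Pcolce. The day 2 counts went from 1 to 2 without Fl/Fl replicate 2 of day 0 in Fl/Fl and without null replicate 2 or 3 of day 0 in null. The Fl/Fl count of day 4 dropped from 7 to 4 without either Fl/Fl array of that day. With the null arrays above 500 in Eif2s3y left out, the null counts went from 1 to 3 at day 2, from 4 to 7 at day 4 and from 11 to 7 at day 6. That leaves replicate 1 as the lone null array of day 0, assumed to vary like the other groups. With only the arrays of the 2 groups compared in the fit, the day 8 counts were 19 in Fl/Fl and 5 in null. The share of all genes called in these refits is not given here, so their counts stand without a background.

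**Figure D2:**
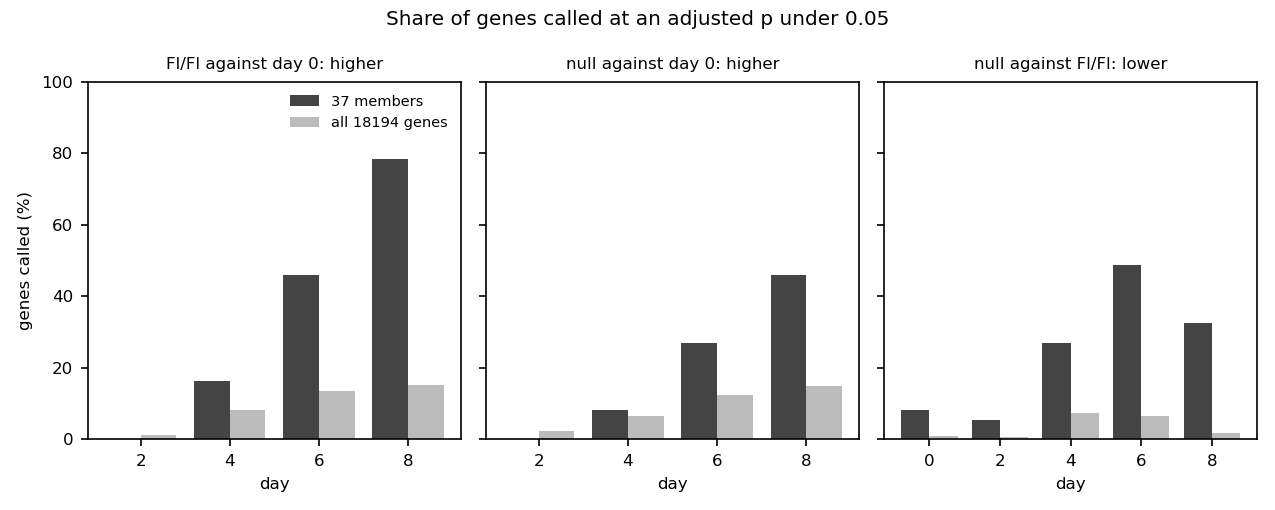
Percent of the 37 members (dark bars) and of all 18194 genes (light bars) called at an adjusted p under 0.05, for rises from day 0 in Fl/Fl (left), rises from day 0 in null (middle) and lower levels in null than in Fl/Fl (right), by day. At day 8 of Fl/Fl the bars stand at 78.4% of members and 15% of all genes.

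The day a gene left the floor was taken as the earliest day from which every array of the genotype read 50 or more up to day 8. In Fl/Fl 5 members were above it from day 0: Thbs1, Fbln1, Pcolce, Serpinh1 and Pmp22. None left it at day 2. At day 4, 6 did: Bmp1, Cd44, Ccn4, Tgfb2, Axl and Emp1, of which Bmp1 and Emp1 had also been above it at day 0. Day 6 added 9, namely Postn, Bgn, Tnc, Fbn2, Fbln2, Lox, Loxl1, Pdgfrb and Tgfbi. Day 8 added Mgp, Col6a1, Col12a1, Pdgfra, S100a4 and Tm4sf1. The remaining 11, Dcn, Lum, Fap, Thbs2, Fbln5, Col6a2, Col6a3, Thy1, Tgfb3, Ccl2 and Vcam1, never held it. Among these, Lum, Thbs2, Col6a3, Tgfb3 and Ccl2 were nonetheless called higher at day 8, so those calls rest on low intensities. In null 3 members were above the floor from day 0, 1 left it at day 4, 5 at day 6 and 5 at day 8, and 23 never did. Before day 8 this rule asks more of null, with 3 or 5 arrays a day, than of Fl/Fl with 2. The days of the genotypes are therefore not like for like. Among the 23, Pdgfra (355), Pdgfrb (96) and Fbln2 (71) were above 50 in null replicate 1 of day 8. Lox (352), S100a4 (148), Loxl1 (96), Postn (62) and Thy1 (51) were above it in replicate 2.

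At each day the members above the floor numbered 7, 5, 11, 20 and 26 in Fl/Fl from day 0 to day 8. In null, where more arrays had to pass at each day before day 8, they numbered 3, 3, 4, 9 and 14. Over all genes the share above it barely moved, from 41.4% to 42.2% in Fl/Fl and from 38.9% to 39.6% in null between days 0 and 8. The days depend on 50 as the limit: at 25 the Fl/Fl numbers were 15, 14 and 18 at days 0, 2 and 4. Day 0 also depended on an array, since without Fl/Fl replicate 2 of day 0 the number was 13.

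The matricellular genes, whose proteins sit in the matrix and signal to cells, were higher at day 8 in Fl/Fl in 6 of 6 cases, with a median log2 change of 5.13 and Thbs2 below the floor throughout. They were called from day 4 (Thbs1, Ccn4), day 6 (Tnc, Postn, Tgfbi) or day 8 (Thbs2). Thbs1, thrombospondin, can release TGF-beta from its stored form. In Fl/Fl it read 240 and 219 at day 0, 438 and 496 at day 2, 2294 and 2345 at day 4, 4538 and 6982 at day 6, and 8442 and 8869 at day 8. Null Thbs1 gave 148, 25 and 25 at day 0, 146, 131, 132, 27 and 65 at day 2, 211, 481, 709, 679 and 660 at day 4, 695, 2004, 4665, 3582 and 3282 at day 6, and 2281 and 10018 at day 8. The Fl/Fl arrays were above every null array at days 0 to 4. The groups overlapped at day 6, and at day 8 the null arrays fell on either side of Fl/Fl. The rise from day 0 to day 8 was 5.21 ± 0.904 (log2, SE; limma adjusted p = 0.000106) in Fl/Fl and 6.57 ± 0.825 in null (adjusted p = 2.4e-06). No day gave a called difference between genotypes; at day 8 it was -0.86 (95% interval -2.74 to 1.03).

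Ccn4, a secreted protein of the Wnt response, stood at 30 and 32 at day 0 and 28 and 33 at day 2 in Fl/Fl, then at 294 and 269, 1339 and 1518, and 1419 and 1438 at days 4, 6 and 8. Null Ccn4 lay between 14 and 27 in all 13 arrays of days 0, 2 and 4, read 51, 190, 110, 117 and 117 at day 6, and 398 and 1006 at day 8. Every null array of days 4, 6 and 8 was below both Fl/Fl arrays of its day. The difference, null minus Fl/Fl, was -3.37 ± 0.343 at day 4 (log2, SE; limma adjusted p = 1.51e-06) and -3.67 ± 0.343 at day 6 (3.82e-07), and at day 8 it was -1.17 ± 0.41 (adjusted p = 0.145).

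Tnc, tenascin-C, went from 14 and 26 at day 4 to 811 and 930 at day 6 and 1179 and 1105 at day 8 in Fl/Fl. In null it was at 14 in every array of days 2 and 4, at 14, 31, 44, 29 and 30 at day 6, and at 384 and 1021 at day 8. The genotypes were furthest apart at day 6, at -4.77 ± 0.376 (limma adjusted p = 3.32e-08), and at day 8 the difference was -0.86 ± 0.449 (adjusted p = 0.399). Postn, periostin, a collagen-binding protein of fibroblasts, came later. It was at 9 to 11 in Fl/Fl through day 4, at 62 and 52 at day 6 and at 1149 and 2282 at day 8. Its 18 null arrays before day 8 read 8 or 9, and the day 8 arrays 19 and 62. All 7 null arrays of days 6 and 8 were below Fl/Fl of their day, and replicate 2 of day 8 had the level Fl/Fl had at day 6. The difference was -2.25 ± 0.242 at day 6 (adjusted p = 2.83e-06) and -5.38 ± 0.29 at day 8 (adjusted p = 4.66e-11).

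Tgfbi, an adhesive matrix protein induced by TGF-beta, read 31 and 44 at day 0, 75 and 76 at day 6 and 318 and 841 at day 8 in Fl/Fl. Null read 30, 49 and 37 at day 0, between 23 and 49 in the arrays of days 2 to 6, and 39 and 34 at day 8. The day 8 difference was -3.69 ± 0.344 (limma adjusted p = 3.57e-07), and the other Tgfbi probe sets gave -5.05, -5.02 and -4.08, all called. The smaller difference of day 6, -0.93 ± 0.288 (adjusted p = 0.0427), was lost without any of 14 single arrays, most of all without Fl/Fl replicate 2 of day 6 (0.27). Thbs2 was at 12 and 13 in Fl/Fl at day 8 against 7 and 7 at day 0, and its call (adjusted p = 0.0274) was lost without any of 4 single arrays, among them Fl/Fl replicate 2 of day 8 (0.13). Between genotypes its brightest probe set was not called at day 8 (-0.27), whereas its dimmest was, at -1.16, with 4 and 5 in null and a mean of 15 in Fl/Fl.

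**Figure D3:**
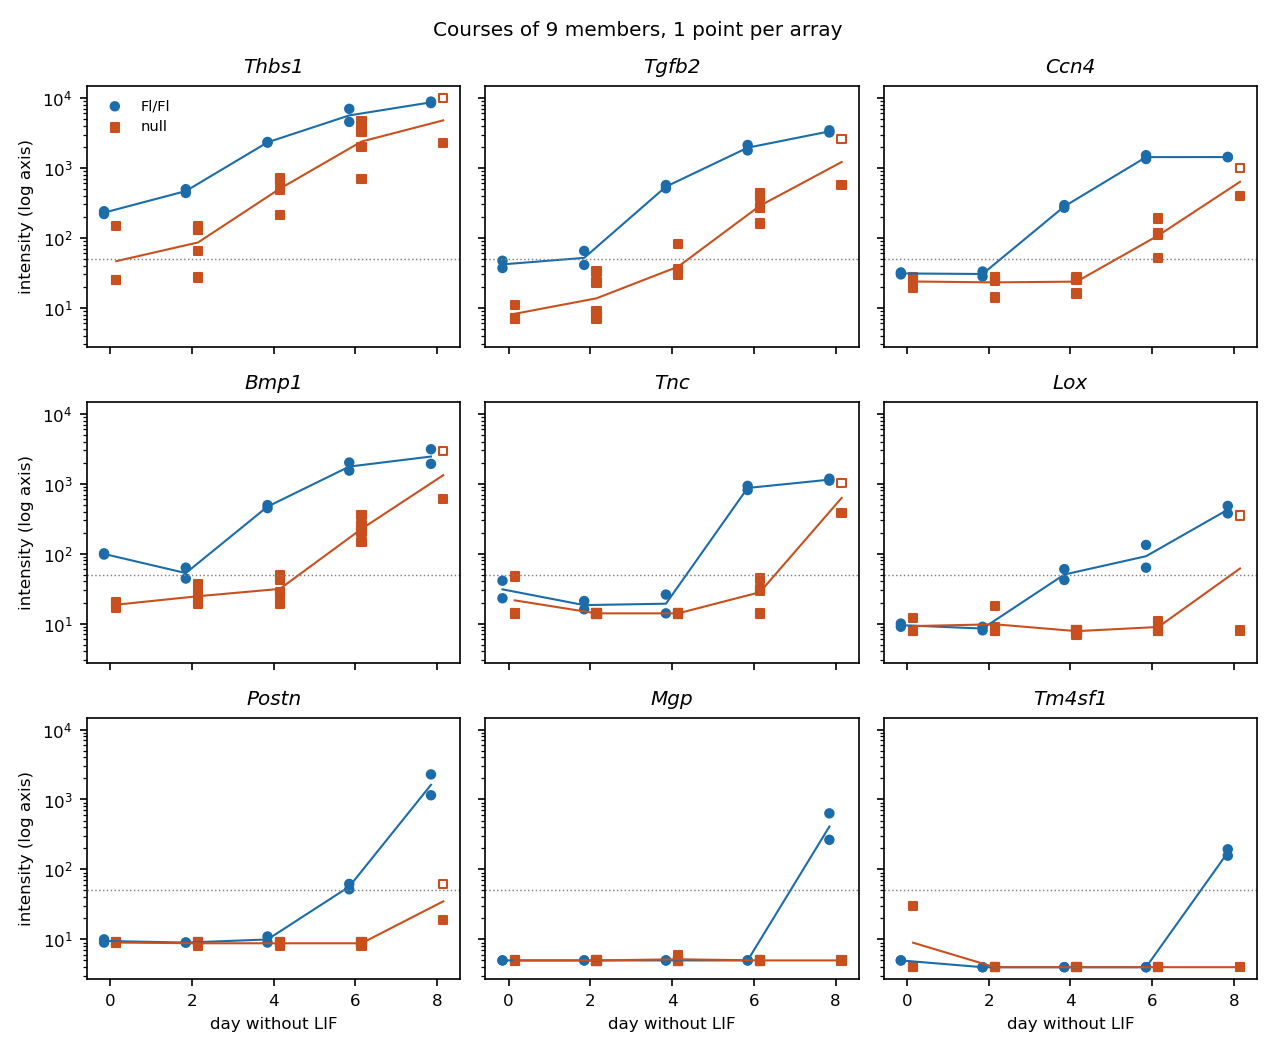
Intensity (log axis) of 9 genes against day without LIF, 1 point per array, with lines through the group means of log2(intensity + 4), Fl/Fl as blue circles and null as orange squares. The open square is null replicate 2 of day 8, and the dotted line is the floor of 50. At day 8 that array lies near Fl/Fl for Thbs1, Bmp1, Tnc and Lox and far below it for Postn, Mgp and Tm4sf1.

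Among the small proteoglycans and Mgp, 3 of 4 were higher at day 8 in Fl/Fl and none of 4 in null. Mgp, matrix Gla protein, an inhibitor of calcification, was at 5 in all 8 Fl/Fl arrays before day 8 and at 265 and 633 at day 8. Every null array read 5 apart from 1 at 6. The day 8 difference was -5.52 ± 0.196 (limma adjusted p = 3.52e-14). With null at the floor its size is set by the floor and the offset, as it is for Tm4sf1, Col6a1 and Col6a3. Bgn, biglycan, which binds collagen fibrils and TGF-beta, read 57 and 16 at day 0, 14 and 12 at day 2, 42 and 58 at day 4, 288 and 226 at day 6, and 583 and 917 at day 8 in Fl/Fl. Null Bgn was 93, 19 and 14 at day 0, 10 to 24 in the 15 arrays of days 2 to 6, and 14 and 39 at day 8. Apart from replicate 1 of day 0, no null array reached 40. The genotypes differed by -3.79 ± 0.476 at day 6 (adjusted p = 2.34e-05) and -4.72 ± 0.569 at day 8 (1.69e-05), and the other Bgn probe sets were called at day 8 as well. At day 4 the difference of -1.62 (adjusted p = 0.0295) was lost without either of 2 arrays, among them Fl/Fl replicate 2 of that day (0.244).

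Lum, lumican, stayed at 5 or 6 everywhere but the Fl/Fl arrays of day 8, at 10 and 49, so its called difference of -1.52 ± 0.31 (limma adjusted p = 0.00653) rests on values at the foot of the scale. Dcn, decorin, was the member of this group that did not rise. It read 6 and 6 at day 0, 27 and 48 at day 2, 31 and 31 at day 4, 9 and 11 at day 6, and 8 and 15 at day 8 in Fl/Fl. Null Dcn was highest in replicates 1 and 2 of days 2 and 4, at 43 and 71 and at 91 and 68, where the other replicates lay between 10 and 28. No Dcn comparison was called.

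Of the microfibril and elastic fibre genes, 2 of 4 measured were higher at day 8 in Fl/Fl. Fbn2, a fibrillin of embryonic microfibrils, held between 26 and 32 through day 4, then read 161 and 56 at day 6 and 342 and 380 at day 8. In null it was 94, 56, 24, 20 and 21 at day 6 and 52 and 81 at day 8, below both Fl/Fl arrays at day 8 and overlapping them at day 6. The day 8 difference was -2.4 ± 0.485 (limma adjusted p = 0.00599), and it was lost without either of 2 arrays, among them null replicate 1 of day 8 (0.0647). The dimmer Fbn2 probe set was called too, at -2.83 (3.2e-06 in the fit over all probe sets). The day 6 call (adjusted p = 0.0411) was lost without any of 4 arrays, among them Fl/Fl replicate 1 of day 6 (0.757).

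Fbln1, a fibulin of basement membranes and elastic fibres, was above the floor in all 30 arrays by its brightest probe set. Its dimmer probe sets averaged 15.4 and 14.9, and their Fl/Fl day 8 changes of -0.15 and 0.43 were not called. The brightest read 268 and 101 at day 0 and 360 and 456 at day 8 in Fl/Fl, and 472 and 115 in null at day 8. Its Fl/Fl rise of 1.28 ± 0.469 (limma adjusted p = 0.0402) was lost without any of 3 arrays, among them Fl/Fl replicate 2 of day 0 (0.476). Fbln2 gave 83 and 18 at day 0 and 174 and 228 at day 8 in Fl/Fl, and 147, 9 and 9 at day 0 and 71 and 12 at day 8 in null, with a day 8 difference of -2.55 (95% interval -4.61 to -0.5; adjusted p = 0.196). Fbln5 stayed between 10 and 20. Replicate 1 of day 0 was high in both genotypes for Bgn, Fbln2, Cd44 and S100a4, and Col1a1, which is no member, was high in the same arrays (341 against 124 in Fl/Fl, 90 against 16 and 8 in null).

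Among the non-fibrillar collagens and the genes that process collagen, 8 of 9 measured were higher at day 8 in Fl/Fl and 5 of 9 in null. Serpinh1, the chaperone that folds procollagen, was called lower in null at days 0, 2, 4 and 6. In Fl/Fl it gave 1046 and 908, 829 and 991, 4203 and 4230, 9071 and 8985, and 11010 and 12255 at days 0, 2, 4, 6 and 8. Null Serpinh1 gave 452, 242 and 240 at day 0, 361, 329, 285, 349 and 296 at day 2, 1044, 1406, 644, 548 and 497 at day 4, 3477, 4863, 2638, 2377 and 2282 at day 6, and 4558 and 7616 at day 8. At no day did the genotypes overlap. The differences from day 0 to day 6 were -1.7, -1.48, -2.46 and -1.59, with limma adjusted p-values of 0.0238, 0.0484, 5.49e-05 and 0.00414, and at day 8 the difference was -0.98 ± 0.408 (adjusted p = 0.241). The call of day 0 was lost without any of 3 single arrays, that of day 2 without any of 21 and that of day 6 without either of 2. The highest adjusted p was 0.149, 0.249 and 0.0657, without Fl/Fl replicate 1 of day 0, replicate 2 of day 2 and replicate 2 of day 6.

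Bmp1, the protease that removes the C-terminal propeptide of procollagen, read 101 and 97, 44 and 63, 447 and 494, 1537 and 2006, and 1921 and 3108 in Fl/Fl from day 0 to day 8. In null it was 17, 19 and 20 at day 0, 24, 19, 36, 27 and 20 at day 2, 50, 26, 28, 19 and 42 at day 4, 148, 357, 257, 210 and 204 at day 6, and 599 and 2914 at day 8. The null arrays lay below Fl/Fl at every day up to day 6, and at day 8 replicate 2 fell between the Fl/Fl arrays. The difference was -3.75 ± 0.423 at day 4 (limma adjusted p = 5.46e-06) and -2.94 ± 0.423 at day 6 (0.000109). That of day 0, -2.19 (adjusted p = 0.0191), was lost without any of 4 arrays, among them Fl/Fl replicate 1 of day 0 (0.0986).

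Pcolce, which enhances that cleavage, had its own course. It began high, at 519 and 944 in Fl/Fl and 863, 758 and 750 in null, fell to 118 and 163 and to 93 to 118 at day 2, and rose again to 1750 and 1627 in Fl/Fl but to 228 and 869 in null at day 8. The fall to day 2 was -2.3 ± 0.382 in Fl/Fl (limma adjusted p = 0.00103) and -2.83 ± 0.279 in null (adjusted p = 1.01e-06). In the fit over all probe sets, the dimmer Pcolce probe set was not called higher at day 8 in Fl/Fl (0.88, 0.148). It was called lower in null at day 8 (-1.99, 0.012). The genotypes differed by -1.59 ± 0.32 at day 6 (adjusted p = 0.00255) and -1.91 ± 0.382 at day 8 (0.00549), the latter lost without null replicate 1 of day 8 (0.109). The day 8 rise over day 0 in Fl/Fl (adjusted p = 0.0135) was lost without any of 3 arrays, among them Fl/Fl replicate 1 of day 0 (0.199), and the day 4 difference (0.0155) without either of 2, among them Fl/Fl replicate 1 of day 4 (0.13).

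Lox and Loxl1 are oxidases that cross-link collagen and elastin. Lox read 42 and 60 at day 4, 63 and 133 at day 6 and 376 and 481 at day 8 in Fl/Fl, from 10 and 9 at day 0. In null it stayed between 7 and 18 in all 18 arrays before day 8 and then read 8 in replicate 1 and 352 in replicate 2. Replicate 1 was thus at the floor and replicate 2 just below the lower Fl/Fl array, so the called rise of Lox in null rests on replicate 2. The day 8 difference of -2.72 ± 0.808 did not pass (limma adjusted p = 0.0831), and the call of day 4 (0.0374) was lost without any of 6 arrays, among them Fl/Fl replicate 2 of that day (0.256). The day 6 call (adjusted p = 0.00787) was lost without Fl/Fl replicate 2 of day 6 alone (0.193). Loxl1 reached 82 and 112 at day 6 and 420 and 599 at day 8 in Fl/Fl, from 27 and 13, and 37 and 96 in null at day 8, with no null array above 28 before. Its differences were -2.14 ± 0.382 at day 6 (adjusted p = 0.000914) and -2.98 ± 0.456 at day 8 (0.000378). The dimmer Loxl1 probe set was not called between genotypes at day 8 (-0.58, 0.105 in the fit over all probe sets).

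The beaded-filament collagen VI genes were low. Col6a1 was at 6 at day 0 and 64 and 111 at day 8 in Fl/Fl, and at 6 and 9 in null, a difference of -2.96 ± 0.226 (limma adjusted p = 1.75e-08). Col6a3 read 15 and 43 in Fl/Fl at day 8 and 4 in all 20 null arrays (-1.9 ± 0.226, adjusted p = 1.49e-05), and Col6a2 stayed between 7 and 15 everywhere. Col12a1, a collagen that sits on the surface of fibrils, had a shallow dip in Fl/Fl, from 50 and 38 to 26 and 22 at day 4 and back to 77 and 70. Its day 8 call (adjusted p = 0.0384) was lost without any of 3 arrays, among them Fl/Fl replicate 2 of day 0 (0.241). In null it went from 28, 23 and 29 to 59 and 56, a rise of 1.01 ± 0.233 (adjusted p = 0.0018), and its day 6 difference between genotypes (0.0123) was lost without either of 2 arrays, among them Fl/Fl replicate 2 of day 6 (0.186).

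Of the 10 cell surface genes, 6 were higher at day 8 in Fl/Fl and 6 in null, where the call of Thy1 rests on replicate 2. Emp1 was also called higher in null, but its replicate 1 of day 8 (66) lay within its null values of day 0 (78, 14 and 39). Pmp22, a tetraspan membrane protein known from myelin and growth arrest in fibroblasts, had the largest Fl/Fl change among the cell surface genes. Fl/Fl Pmp22 gave 198 and 157, 129 and 135, 190 and 230, 3368 and 3083, and 9306 and 9902 at the 5 days in turn. In null it gave 22, 9 and 39 at day 0, 8, 11, 31, 21 and 26 at day 2, 23, 52, 75, 26 and 44 at day 4, 689, 665, 250, 261 and 235 at day 6, and 2748 and 2788 at day 8. The null arrays were below Fl/Fl at every day, and the 2 of day 8 read nearly alike. Differences of -2.89, -2.65, -2.26 and -3.1 were called at days 0, 2, 4 and 6 (limma adjusted p = 0.00836, 0.0136, 0.0048 and 0.000368), and -1.79 ± 0.602 at day 8 was not (0.123). Those of days 0 and 4 were each lost without 1 array, Fl/Fl replicate 1 of day 0 (0.0705) and Fl/Fl replicate 2 of day 4 (0.0727), and that of day 2 without either of 2, among them Fl/Fl replicate 1 of day 2 (0.109).

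Axl, a receptor tyrosine kinase, read 50 and 34, 18 and 15, 176 and 185, 546 and 787, and 1129 and 1242 in Fl/Fl. Null Axl lay between 5 and 18 in the 13 arrays of days 0, 2 and 4, then at 15, 77, 64, 93 and 80 at day 6 and at 160 and 911 at day 8. At no day did a null array reach the Fl/Fl arrays. The difference was -3.9 ± 0.527 at day 4 (limma adjusted p = 4.24e-05), -3.43 ± 0.527 at day 6 (0.000212) and -1.62 ± 0.63 at day 8 (0.2).

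Cd44, the hyaluronan receptor, read 109 and 18 at day 0, 11 and 12 at day 2, 129 and 134 at day 4, 1306 and 1087 at day 6 and 1196 and 1361 at day 8 in Fl/Fl. In null its day 4 arrays gave 15, 40, 32, 13 and 17, its day 6 arrays 132, 193, 113, 138 and 98, and its day 8 arrays 462 and 641. All of these were below Fl/Fl of the same day. The difference was -2.41 ± 0.508 at day 4 (limma adjusted p = 0.00309) and -3.14 ± 0.508 at day 6 (0.000355). At day 8 its probe sets disagreed: the brightest was not called (-1.22, adjusted p = 0.362), whereas the next in brightness were, with adjusted p-values of 0.0139 and 2.28e-05 in the fit over all probe sets.

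Emp1, a relative of Pmp22 whose upstream sequence is printed above, gave 94 and 80 at day 0, 38 and 37 at day 2, 72 and 67 at day 4, 657 and 648 at day 6 and 811 and 731 at day 8 in Fl/Fl. Null Emp1 read 13, 43, 6, 37 and 37 at day 6 and 66 and 797 at day 8. The day 6 difference was -4.62 ± 0.717 (limma adjusted p = 0.000227), while at day 8 null replicate 2 lay between the Fl/Fl arrays and replicate 1 below them. Tm4sf1, another tetraspan protein, was at 4 or 5 in the 8 earlier Fl/Fl arrays and at 157 and 194 at day 8. In null it read 30 in replicate 1 of day 0 and 4 in the other 19 arrays, a day 8 difference of -4.48 ± 0.378 (adjusted p = 8.6e-08). The dimmer Tm4sf1 probe sets averaged 5.6 and 5, and their day 8 differences of 0.08 and 0 were not called.

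The PDGF receptors parted. Pdgfrb, carried by pericytes and fibroblasts, gave 191 and 171 at day 6 and 134 and 235 at day 8 in Fl/Fl, and 57, 63, 19, 26 and 22 at day 6 and 96 and 46 at day 8 in null. Its day 6 difference was -2.3 ± 0.413 (limma adjusted p = 0.000966), and its day 8 difference of -1.36 was not called (0.17 in the fit over all probe sets), although its dimmer probe set was (5.54e-05). Pdgfra, a receptor of early mesoderm and mesenchyme, was higher in some null arrays than in Fl/Fl. It read 77 and 44 at day 6 and 57 and 94 at day 8 in Fl/Fl, but 509, 202, 39, 42 and 22 at day 6 and 355 and 8 at day 8 in null. Replicates 1 and 2 of day 6 and replicate 1 of day 8 were high, and replicate 2 of day 8 was at the floor. The day 8 difference was -0.24 with a 95% interval from -2.59 to 2.12, so these arrays leave its size wide.

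Thy1, a surface protein of fibroblasts and neurons, stayed between 6 and 13 in 29 arrays and read 51 in null replicate 2 of day 8. Its called rise in null at day 8 rests on that array, as replicate 1 read 6. Vcam1, an adhesion molecule, lay between 23 and 49 throughout, and its day 6 fall in Fl/Fl was -0.68 ± 0.208 (limma adjusted p = 0.016).

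All 4 signals, S100a4 included, were higher at day 8 in Fl/Fl, and 1 of 4 in null. Tgfb2, a TGF-beta ligand, gave 47 and 37, 41 and 65, 569 and 511, 1777 and 2127, and 3207 and 3446 in Fl/Fl over the days. In null it gave 11, 7 and 7 at day 0, 23, 9, 33, 8 and 7 at day 2, 30, 82, 36, 31 and 31 at day 4, 160, 433, 391, 266 and 271 at day 6, and 570 and 2575 at day 8. Null was below Fl/Fl in every array at every day. Both genotypes rose, by 6.19 ± 0.615 in Fl/Fl (limma adjusted p = 1.23e-07) and 6.64 ± 0.561 in null (adjusted p = 1.3e-08). The difference between them was -3.67 ± 0.514 at day 4 (6.13e-05), -2.74 ± 0.514 at day 6 (0.0014) and -1.45 ± 0.615 at day 8 (0.251). Its dimmest probe set was called at day 8 (0.00925 in the fit over all probe sets) and its others were not.

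S100a4, a calcium-binding protein of motile fibroblasts and macrophages, read 63 and 35 at day 0, 16 and 22 at day 2, 51 and 22 at day 4, 71 and 44 at day 6 and 488 and 460 at day 8 in Fl/Fl. Null S100a4 was 171, 11 and 9 at day 0 and 11 and 148 at day 8. The Fl/Fl rise of 3.22 ± 0.919 (limma adjusted p = 0.00901) was lost without Fl/Fl replicate 2 of day 0 (0.0721), and the day 8 difference of -3.32 ± 0.919 had an adjusted p of 0.0586. Ccl2, a chemokine that draws monocytes, reached 33 and 110 in Fl/Fl at day 8 from 9 and 8, and 17 and 8 in null (-2.03 ± 0.301, adjusted p = 0.00027). Tgfb3 was at 4 and 18 in Fl/Fl at day 8, and its call there (0.0203) was lost without any of 3 arrays, among them replicate 2 (adjusted p = 1).

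Across the list no member was called higher in null at any day. The members called lower numbered 3, 2, 10, 18 and 12 at days 0, 2, 4, 6 and 8. Over all genes the shares lower in null were 0.929%, 0.517%, 7.43%, 6.46% and 1.8%, and the shares higher were 0.247%, 0.104%, 4.18%, 3.47% and 0.709%. The members' median difference went from -0.05 and 0 at days 0 and 2 through -0.16 and -1.24 to -1.45 at day 8. At an unadjusted limma p under 0.05, in either direction, 8, 5, 12, 22 and 23 members passed at days 0, 2, 4, 6 and 8. For this limit, too, the share of all genes was not computed, so these numbers stand without a background. The called members of day 0 were Bmp1, Serpinh1 and Pmp22, and at day 2 Serpinh1 and Pmp22. Day 8 held Postn, Mgp, Bgn, Lum, Fbn2, Loxl1, Col6a1, Col6a3, Pcolce, Tgfbi, Tm4sf1 and Ccl2. Genes of the day 4 rise, such as Ccn4, Tgfb2, Axl and Bmp1, were called at days 4 and 6 and not at day 8. At day 8 their null arrays lay apart (Ccn4 398 and 1006, Tgfb2 570 and 2575, Axl 160 and 911, Bmp1 599 and 2914). Null replicate 1 was below both Fl/Fl arrays for each of them.

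These counts moved with some arrays. The share of all genes called is not given for these refits, so the moves are not read as particular to the members. Only for day 8 without null replicate 2 is that share given, further below where replicate 1 is tested alone. The day 0 count was 0 without Fl/Fl replicate 1 of day 0, 1 without null replicate 2 or 3 of day 0 and 5 without either null array of day 8. At day 2 it was 0 without either Fl/Fl array of that day, and 1 without any other Fl/Fl array, null replicate 2 or 3 of day 0, 2 to 5 of day 2, 3 of day 4, or 1, 3, 4 or 5 of day 6. At day 4 it was 6 without Fl/Fl replicate 2. At day 6 it was 7 without the null arrays above 500 in Eif2s3y and 18 with those alone. At day 8 it was 20 without null replicate 2, 7 without the dimmest 40% of genes and 2 with only the 4 arrays of that day in the fit.

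A test of whether the day 8 change itself differed between genotypes called 9 members, all with the smaller change in null. Its value is the null change minus the Fl/Fl change, which was called lower for 0.687% of all genes and higher for 0.407%. The members called were Postn, Mgp, Bgn, Loxl1, Col6a1, Col6a3, Tgfbi, Tm4sf1 and Ccl2. Mgp differed by -5.52 ± 0.265 (limma adjusted p = 1.5e-11) and Postn by -5.33 ± 0.392 (1.4e-08). These comparisons share the arrays of days 0 and 8, so their counts are not separate evidence. The null change in this test partly mixes day with the Eif2s3y sets, and the test was not refitted without the arrays above 500. The count was 5 without the dimmest 40% of genes and 2 with only the 4 groups in the fit, in each case without a share over all genes beside it.

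The null arrays of day 8 fell short by different amounts. They also differed in Eif2s3y, at 365 in replicate 1 and 11 in replicate 2, and its bearing on the shortfall was not tested. Replicate 1 was below both Fl/Fl arrays for 29 of 37 members and replicate 2 for 27, against 33% and 31.4% of all genes. Both null arrays were below both Fl/Fl arrays for 24 members, against 16.8% of all genes. The median difference from the Fl/Fl mean was -1.8 in replicate 1 and -0.95 in replicate 2, and 0 in each over all genes. Members above the floor numbered 17 and 19 in the null arrays, and 26 and 27 in the Fl/Fl arrays.

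Tested alone against Fl/Fl, replicate 1 had 20 members lower and 0 higher, where 7.76% of all genes were lower and 6% higher. Replicate 2 had 11 lower and 1 higher (Thy1), where 1.79% were lower and 1.3% higher. Each of these tests sets 1 array against 2 and takes its spread from the other groups. With only those 3 arrays in the fit the counts were 5 and 1.

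**Figure D4:**
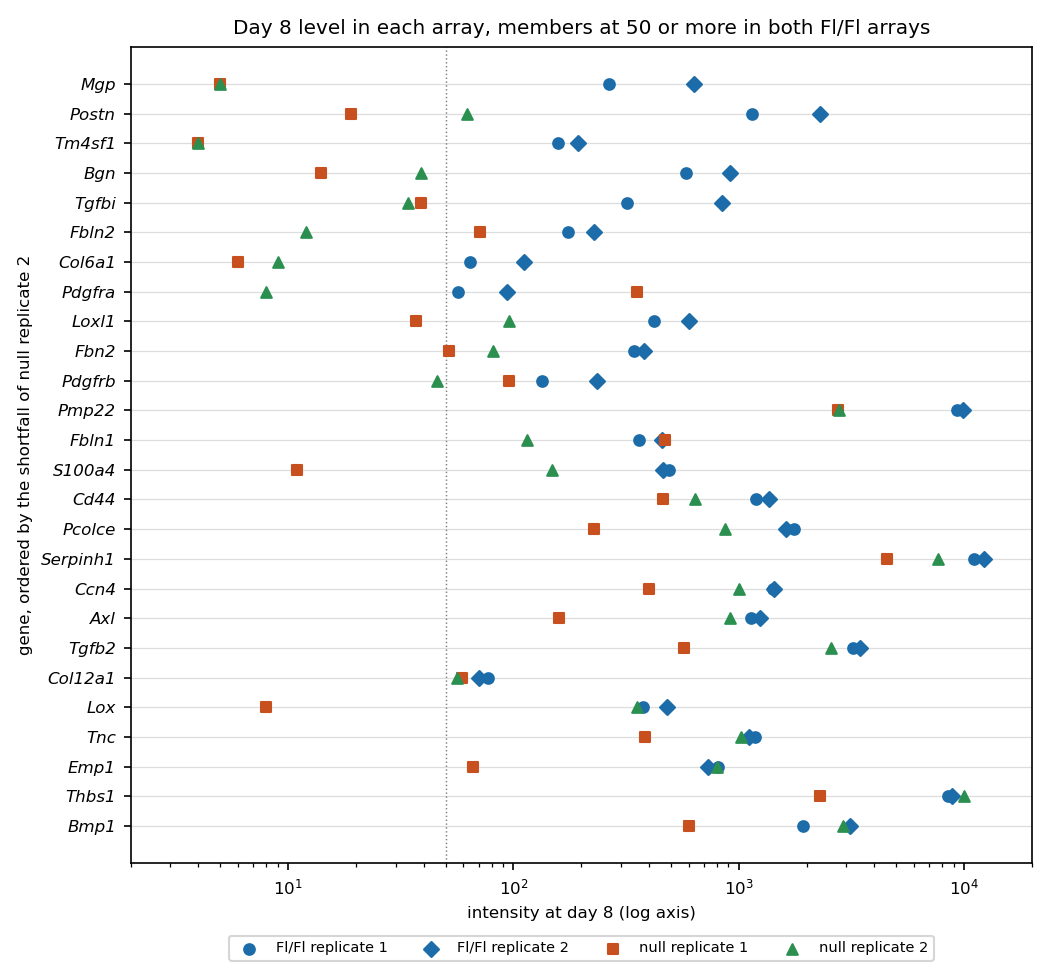
Intensity at day 8 (log axis) in each of the 4 arrays for the 26 members at 50 or more in both Fl/Fl arrays, ordered from the greatest shortfall of null replicate 2 at the top; the dotted line is the floor of 50. From Mgp to Col6a1 at the top the null symbols lie left of the Fl/Fl symbols, and from Col12a1 to Bmp1 at the bottom null replicate 2 (green) lies near them.

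Some members were well short in both null arrays. Postn lay -6.14 and -4.62 from the Fl/Fl mean in replicates 1 and 2, Mgp -5.52 and -5.52, Bgn -5.35 and -4.1, Tm4sf1 -4.48 and -4.48, Tgfbi -3.6 and -3.78, and Pmp22 -1.8 and -1.78. Others were short in replicate 1 and near Fl/Fl in replicate 2. This was so for Lox at -5.16 and -0.27, Emp1 at -3.47 and 0.05, Axl at -2.86 and -0.38, Tgfb2 at -2.54 and -0.37, Bmp1 at -2.02 and 0.25, Thbs1 at -1.92 and 0.21, and Tnc at -1.56 and -0.16. Fewer went the other way, with Pdgfra at 2.22 and -2.69 and Fbln1 at 0.22 and -1.78. Replicate 2 exceeded replicate 1 by at least 1 log2 unit for 14 members and fell short of it by as much for 4, where 8.8% and 5.08% of all genes did so. Between the Fl/Fl arrays of day 8 the same numbers were 6 and 0, against 0.517% and 0.539% of all genes. The median absolute difference between the 2 arrays was 0.81 for members in null and 0.3 in Fl/Fl, against 0.16 and 0.09 over all genes.

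Lists of markers of other cell types, set beside these values, did not move as wholes. The 6 smooth muscle genes summed to 50851 and 52051 in Fl/Fl at day 8, 20835 in null replicate 1 and 49525 in replicate 2, which is mostly Acta2 and Tagln. Myh11 (6 in all 4 arrays) and Des (16, 17, 10 and 25) were near the floor, and Smtn was higher in null (269 and 337) than in Fl/Fl (201 and 235). The 12 parietal endoderm genes summed to 15344 and 16829 in Fl/Fl and 6501 and 21685 in null, carried by the basement membrane genes Col4a1, Col4a2 and Lamb1. Of their transcription factors, Gata6 ran the other way in null, at 253 and 65 against 142 and 176 in Fl/Fl. Gata4 (48 and 8 in null, 14 and 30 in Fl/Fl), Sox17 and Sox7 were below the floor in all 4 arrays.

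The 4 primitive streak genes measured of 5 summed to 652 and 336 in Fl/Fl, 8791 in null replicate 1 and 288 in replicate 2, with Mesp1 near the floor in all 4 arrays. Replicate 1 was the array with more Pdgfra and less Lox, Emp1 and Axl. The 6 simple epithelium genes summed to 63028 and 63398 in Fl/Fl and 47916 and 78305 in null. Both null arrays were above Fl/Fl for Epcam (1898 and 1427 against 769 and 667), Cdh1 (4630 and 8926 against 3841 and 3366) and Krt19. Krt8 (15441 and 25703 against 22027 and 22791), Krt18 and Dsp were below Fl/Fl in null replicate 1 and above it in replicate 2. Epcam (4066 and 3602) and Cdh1 (3912 and 3816) were already high in Fl/Fl at day 0.

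The 8 fibroblast genes that are no members summed to 489 and 209 at day 0, 2602 and 2903 at day 6 and 10835 and 13338 at day 8 in Fl/Fl, and to 1150 and 1354 in null at day 8. The gap at day 8 comes mostly from the fibrillar collagens, such as Col1a1 (6250 and 6961 against 189 and 475 in null). Cdh11 was 583 in null replicate 1 and 35 in replicate 2, against 448 and 567 in Fl/Fl, and Twist1 was 167 and 299 against 420 and 313. The part of these cell types in the shortfall was not tested. Macrophage genes summed to between 97 and 166 in all 30 arrays.

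Other genes of matrix building and of its control, 65 listed and 61 measured, are given beside them. In Fl/Fl 35 of 61 were higher and 3 lower at day 8, with a median of 1.34, and in null 26 were higher and 4 lower, with a median of 0.3. Of all genes 15% were higher and 18.6% lower in Fl/Fl, and 14.9% and 18.5% in null. Between genotypes none was higher in null at any day, and 1, 1, 13, 17 and 8 were lower at days 0, 2, 4, 6 and 8. The matching shares of all genes lower in null were 0.929%, 0.517%, 7.43%, 6.46% and 1.8%. At day 4 those with the smallest adjusted p were Fn1, fibronectin (-2.92 ± 0.264, limma adjusted p = 4.36e-07), Loxl4 (-2.3), Tgfb1 (-3.69) and Cdh2, N-cadherin (-2.84). At day 6 they were Zeb2 (-2.18), Zeb1 (-2.85), Tgfbr2 (-2.29) and Plod1 (-1.82), the former pair repressors of epithelial genes. At day 8 they were Emilin1 (-1.19), Loxl3 (-3.09), Snai2 (-2.09) and Col8a1 (-2.79, adjusted p = 0.000723). Emilin1 owes its small standard error of 0.0271 to values at the floor of the array. Sparc, a collagen-binding matricellular protein outside the list, rose by 3.25 ± 0.263 in Fl/Fl (adjusted p = 8.88e-09) and 3.15 ± 0.24 in null (3.12e-09) at day 8.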

How the data were processed

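The 30 arrays (45101 probe sets) are one table of intensities that the authors deposited, on a linear scale. The sources used here do not give their summarisation or scaling; array means lie between 331.8 and 363.6, so the deposited intensities appear scaled to a shared level. No background or detection values were used. Probe sets were named through the platform annotation: 34958 carry 1 gene, 932 several and 9211 none, and only those with 1 were used. Of these, 34754 matched the GRCm38.p6 gene table, and no symbol changed. The brightest probe set stood for each of 18194 genes (9012 have several).

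Intensities were tested as log2(intensity + 4) with limma 3.58.1 in R 4.3.3, 1 mean per genotype and day over all 30 arrays (20 residual degrees of freedom), with Benjamini-Hochberg adjustment over 18194 genes, a threshold of 0.05 and 95% intervals. Folds on this scale understate changes of low genes. Members and lists were chosen with earlier results of these data known, so no p-value is adjusted over the list alone. Genes named with values by array are, in each role group, up to 3 called members with the largest Fl/Fl day 8 change, and the 12 with the smallest adjusted p between genotypes; Emp1, Pdgfra, Pdgfrb, Fbln2, Thy1, Dcn, Pcolce, Col12a1, Thbs2, Tgfb3 and Vcam1 were added after their values were seen. Simulated data over these 18194 genes had normal noise with 1 spread per gene, shared by all groups. Over all comparisons, 84% to 100% of genes changed by 2 log2 units and 49% to 81% of those changed by 1 were recovered. The null arrays of day 8 differed more than those of Fl/Fl (member medians 0.81 and 0.3), so these rates need not hold there. Same-numbered replicates of the groups compared did not deviate together in every pair, so no replicate block was used. Alternatives were other offsets, quantile and 75th percentile scaling, the mean over probe sets, a filter on dim genes, the replicate block, smaller fits, the null array sets and leaving out each array.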

Additional observations from a re-analysis of the deposited data

Results flagged for a closer look

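Among 26 member groups of 5 arrays, each with an array at 50 or more, tested for an array far from the rest, 2 gave one, and chance flags about 1 in 20 groups. Tgfb2 in null replicate 2 of day 4 read 82, where the other 4 arrays read 30 to 36. Axl in null replicate 1 of day 6 read 15, where the others read 64 to 93.

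The day 8 change differed between genotypes for 9 members by the interaction test in limma, each time with the smaller change in null. That null change partly mixes day with the Eif2s3y array sets, as stated above. The log2 differences were -5.52 for Mgp (adjusted p = 1.5e-11), -5.33 for Postn (1.4e-08), -5.01 for Tm4sf1 (2.61e-06), -4.7 for Bgn (0.00148), -3.72 for Tgfbi (4.33e-05), -2.96 for Col6a1 (2.76e-06), -2.62 for Loxl1 (0.0389), -2.16 for Ccl2 (0.00663) and -1.9 for Col6a3 (0.00122).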

How the results depend on the processing

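Of 142 alternatives to the counts of called members, 121 stayed within 1.5 times. Of 644 alternatives to named results 579 were still called, 65 were not and 0 reversed. Shares of all genes called are given only for the main fits and for the tests of a single null array of day 8. With only the groups compared in the fit the counts were 0 (Fl/Fl day 2), 19 (Fl/Fl day 8), 5 (null day 8), and between genotypes 1 at day 2, 2 at day 8, 2 for the difference in change, 5 for null replicate 1 and 1 for replicate 2. Without the dimmest 40% of genes they were 7 at day 8, 5 for the difference in change and 5 for replicate 2. Without null arrays above 500 in Eif2s3y they were 3, 7 and 7 for null days 2, 4 and 6, and 1 and 7 between genotypes at days 2 and 6; with those null arrays alone, 7 at day 0. Between genotypes at day 2 the count was 1 with log2(intensity + 16) and 1 with the mean over probe sets.

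With the replicate block the counts were 2 for null day 2 and 1 between genotypes at day 2, and the others stayed within 1.5 times (12 at day 8). Same-numbered arrays correlated from -0.009 to 0.237 within Fl/Fl and -0.199 to 0.375 across genotypes. Between null days 2, 4 and 6 all 15 pairs correlated above 0.1 (0.144 to 0.5), but no comparison sets these days against each other. Between null day 0, against which they are set, and days 2 to 6, 6 of 9 pairs did, and replicate 2 correlated from -0.348 to -0.105, so those numbers were not taken as pairs.

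Leaving out each array in turn gave 1 to 2 (Fl/Fl day 2), 4 to 9 (Fl/Fl day 4), 1 to 2 (null day 2), and between genotypes 0 to 5, 0 to 2, 6 to 12 and 11 to 20 at days 0, 2, 4 and 8. Members above the floor at day 0 were 15 with a floor of 25 and 13 without Fl/Fl replicate 2 of day 0, and 14 and 18 at days 2 and 4 with a floor of 25. The median of null replicate 1 was -1.53 with log2(intensity + 16) and -1.56 after quantile normalization. Other scaling moved the median gene by 0.039 or 0.073. In 22 of 74 named results some left-out array ended the call. An arm left with 1 array is assumed to vary like the other groups. With 2 arrays in each Fl/Fl group and in null day 8, and no detection calls, values near the floor carry no order.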
